A study of Homo sapiens with 18 samples.

Results

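The 10 genes of the MHC class I antigen presentation pathway were followed over all 18 arrays of the study: B2M, HLA-E, TAP1, TAP2, TAPBP, ERAP1, PSMB8, PSMB9, PSMB10 and NLRC5. They were taken by symbol, as every probe set of the deposited log2 table that was tied to a member's symbol and to no other gene. The rule found 41 probe sets among the 44994 that carry 1 gene symbol, and each gene was compared through its brightest probe set, as 10 of 18132 genes.

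Class I molecules show peptides from inside the cell to CD8+ T cells. Proteins are cut by the proteasome, in which the inducible catalytic subunits PSMB8, PSMB9 and PSMB10 can take the place of the standard subunits PSMB5, PSMB6 and PSMB7. TAP1 and TAP2 form the transporter that moves peptides into the endoplasmic reticulum, where TAPBP (tapasin) holds empty class I molecules at the transporter, ERAP1 trims peptides to fit, and the light chain B2M pairs with the heavy chain. HLA-E is a class I heavy chain of limited diversity that binds leader peptides of other class I chains and is read by the CD94/NKG2 receptors of NK and T cells. NLRC5 is the transactivator of class I genes, and interferon is the best known inducer of the pathway. Loss of its components is a known route by which colorectal tumours escape T cells.

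WiDr and HT29 are established human colorectal cancer lines, of which WiDr is held to descend from HT29. The groups of 3 arrays were WiDr with AZ628, an inhibitor of RAF kinases (labelled BRAF_INH), WiDr transduced with an shRNA against IKKα, WiDr transduced with a control shRNA, WiDr with vehicle, HT29 with AZ628 and HT29 with vehicle. IKKα, encoded by CHUK, is a kinase of NF-κB signalling. The transduced cells have a control of their own and share the WiDr vehicle arrays with the AZ628 comparison. Dose and time of AZ628, the number of hairpins and the selection of transduced cells are not given in the labels. The labels also leave unsaid whether the 3 arrays of a group were separate cultures. The tests therefore weigh differences against the scatter of these arrays, which could be technical alone. The number of arrays limits the precision.

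Arrays of a group correlated at 0.9971 to 0.9985 over all genes, and no array stood apart from its group. The shRNA target CHUK had a log2 signal of 7.52 ± 0.25 with IKKα shRNA, against 9.64 ± 0.17 with control shRNA (SD, n = 3 each), a difference of -2.12 (SE 0.12, limma adjusted p = 4.11e-10), and it was also lower with AZ628, at -0.43 in WiDr and -0.37 in HT29. Markers of colorectal epithelium were measured for 10 of 10 genes, with list means per array between 10.58 and 10.98. The genes of the epithelial list had mean log2 signals from 5.57 (CDX1) and 6.46 (CDX2) to 14.20 (KRT18), with EPCAM at 13.28. List means per array were 4.57 to 4.87 for leukocyte markers (9 genes) and 4.21 to 4.80 for fibroblast markers (7). The list means were 4.92 to 5.65 for endothelial markers (5) and 4.06 to 4.50 for markers of dendritic cells (5). The medians of the arrays were 5.98 to 6.08 over all probe sets, including those that do not stand for a gene. Among gene means, CDX2 was at percentile 46.1 and CD68 at percentile 52.1. Of the leukocyte markers, LCP2 (3.10) and PTPRC (3.18) had the lowest mean signals and CORO1A (5.98), NKG7 and CD68 (7.08) the highest. Probe sets differ in brightness, so these signals do not rank the genes by RNA level. In bulk RNA, fewer cells that express a gene and less RNA per cell cannot be told apart.

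The RefSeq promoter table of build GRCh38.p14 held 11 windows of 300 bases (250 before and 50 after an annotated start) for 8 of the 10 members. TAP1, TAP2, TAPBP, PSMB8 and PSMB9 have their windows on chromosome 6, B2M on chromosome 15, ERAP1 on chromosome 5 and PSMB10 on chromosome 16. TAP1 and PSMB9 are read in opposite directions from starts with 487 bases between them. For each of the 8 members 1 window is printed, since all 8 changed with AZ628 or with a transduction, and where a gene has a second window the one that holds an ISRE match is shown. Each runs 5′ to 3′ on the gene's strand from 250 bases before to 12 bases after the start, and capitals mark matches on either strand to the ISRE core GAAANNGAAA, the GAS core TTCNNNGAA or the κB core GGGANNNNCC.
TAP1, first start, chr6:32853693-32853954, minus strand: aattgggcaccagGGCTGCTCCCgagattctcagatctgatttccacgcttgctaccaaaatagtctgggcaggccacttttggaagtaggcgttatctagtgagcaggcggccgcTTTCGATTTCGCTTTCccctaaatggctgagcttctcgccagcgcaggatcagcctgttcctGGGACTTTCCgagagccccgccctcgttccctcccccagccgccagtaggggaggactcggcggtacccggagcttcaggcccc
PSMB9, chr6:32853942-32854203, plus strand: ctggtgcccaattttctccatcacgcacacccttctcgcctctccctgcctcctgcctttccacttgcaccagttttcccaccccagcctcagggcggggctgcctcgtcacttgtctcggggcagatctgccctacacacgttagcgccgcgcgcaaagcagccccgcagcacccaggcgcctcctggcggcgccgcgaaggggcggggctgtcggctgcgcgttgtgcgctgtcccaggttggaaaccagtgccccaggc
PSMB8, second start, chr6:32844036-32844297, minus strand: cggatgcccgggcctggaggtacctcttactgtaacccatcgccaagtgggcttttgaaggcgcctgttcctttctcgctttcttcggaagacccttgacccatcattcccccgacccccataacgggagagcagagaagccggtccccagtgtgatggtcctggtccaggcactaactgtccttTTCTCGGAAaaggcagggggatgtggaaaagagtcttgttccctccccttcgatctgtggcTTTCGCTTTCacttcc
TAPBP, chr6:33314067-33314328, minus strand: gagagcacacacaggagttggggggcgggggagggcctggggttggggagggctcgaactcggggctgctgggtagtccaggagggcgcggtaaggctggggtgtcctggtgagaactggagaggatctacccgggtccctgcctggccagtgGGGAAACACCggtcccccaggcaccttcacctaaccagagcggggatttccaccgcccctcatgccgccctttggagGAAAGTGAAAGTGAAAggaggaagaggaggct
TAP2, chr6:32838728-32838989, minus strand: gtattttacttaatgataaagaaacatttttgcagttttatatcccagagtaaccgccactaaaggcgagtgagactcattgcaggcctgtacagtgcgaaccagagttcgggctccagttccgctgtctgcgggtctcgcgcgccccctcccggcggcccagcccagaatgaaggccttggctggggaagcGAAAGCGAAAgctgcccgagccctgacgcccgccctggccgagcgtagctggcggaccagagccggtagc
B2M, chr15:44711267-44711528, plus strand: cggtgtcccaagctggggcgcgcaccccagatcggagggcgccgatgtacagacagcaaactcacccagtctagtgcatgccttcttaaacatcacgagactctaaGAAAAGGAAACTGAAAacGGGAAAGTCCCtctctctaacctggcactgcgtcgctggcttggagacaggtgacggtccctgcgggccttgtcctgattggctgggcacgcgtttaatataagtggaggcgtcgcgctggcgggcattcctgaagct
PSMB10, chr16:67936839-67937100, minus strand: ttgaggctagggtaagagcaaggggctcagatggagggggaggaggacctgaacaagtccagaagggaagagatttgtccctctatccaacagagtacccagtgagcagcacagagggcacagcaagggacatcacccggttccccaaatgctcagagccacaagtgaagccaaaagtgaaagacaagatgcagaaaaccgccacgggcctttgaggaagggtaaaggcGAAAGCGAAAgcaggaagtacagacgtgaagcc
ERAP1, second start, chr5:96807934-96808195, minus strand: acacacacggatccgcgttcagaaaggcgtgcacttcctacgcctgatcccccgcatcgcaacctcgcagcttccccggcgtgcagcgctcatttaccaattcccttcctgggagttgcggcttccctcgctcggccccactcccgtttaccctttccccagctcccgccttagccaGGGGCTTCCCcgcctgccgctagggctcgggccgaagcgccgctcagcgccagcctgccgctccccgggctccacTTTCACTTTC

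The ISRE core, the letters to which interferon regulatory factors bind, was found in 7 of the 11 windows and in 3.57% of all 35116 windows of the table. It was present for 7 of the 8 members, and the PSMB9 window held none. In TAP1 a pair of overlapping matches lay at -134 to -119, counted in bases from the start. In TAPBP a pair lay at -20 to -5, and in B2M a pair lay at -144 to -129. The TAP1 pair lies between the starts of TAP1 and PSMB9, beyond the 250 bases that the PSMB9 window holds before its start. The match in the second PSMB8 window spanned the start itself, at -4 to 6. The κB core stood in 4 of the 11 windows and in 25.6% of all windows. In the first TAP1 window it lay at -237 to -228, at -72 to -63 (GGGACTTTCC) and at 23 to 32. The last of these lies beyond the printed bases. In B2M overlapping κB matches on opposite strands lay at -126 to -116, next to the ISRE pair. The GAS core was found in 2 of the 11 windows and in 7.66% of all windows. These matches describe the letters of the windows, and binding was not measured.

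**Figure D1:**
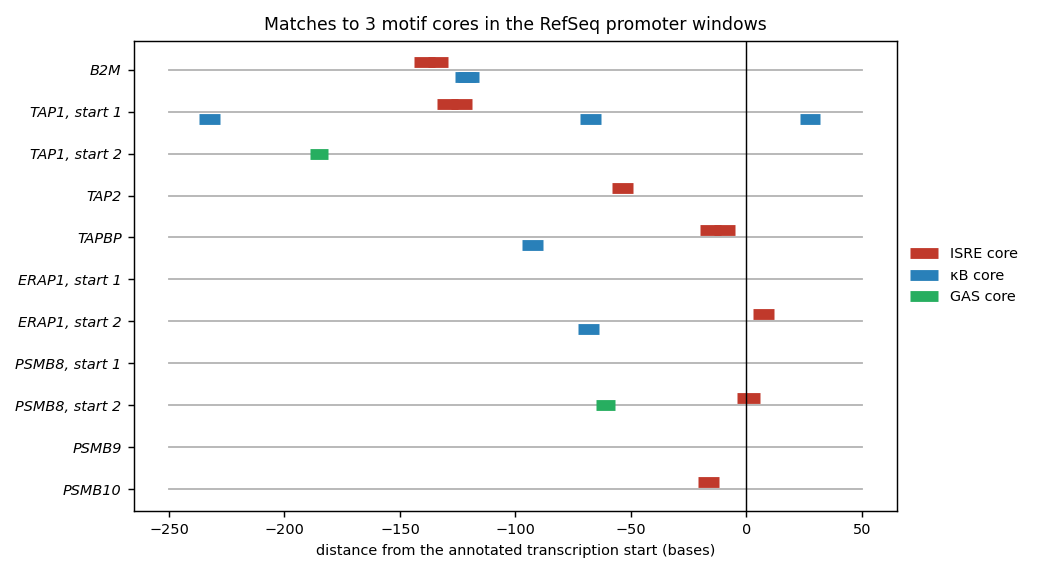
Positions of matches to the ISRE, κB and GAS cores in the 11 RefSeq promoter windows of 8 members, against distance from the annotated start in bases (grey line: the window, 250 bases before to 50 after the start; coloured blocks: matches). ISRE matches appear for 7 of the 8 members and lie close to the start in TAPBP, PSMB10, PSMB8 and ERAP1. The PSMB9 window has no match of any kind, and TAP1, ERAP1 and PSMB8 each have a window without an ISRE match.

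AZ628 was followed by higher transcript levels of most of the pathway in both lines. In WiDr, 8 of the 10 members rose, 1 fell (TAP2) and 1 did not pass (NLRC5), where 44.6% of all genes passed in either direction, 23.4% higher and 21.1% lower. In HT29, 8 rose, again 1 fell (TAP2), and PSMB10 did not pass, where 43.6% of all genes passed, 22.5% higher and 21.0% lower. A gene passed at a limma adjusted p under 0.05 over all genes. The median log2 difference of the members was 0.89 in WiDr and 0.51 in HT29, against medians over all genes of -0.00 and 0.00. The members that rose in both lines were B2M, HLA-E, TAP1, TAPBP, ERAP1, PSMB8 and PSMB9.

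**Figure D2:**
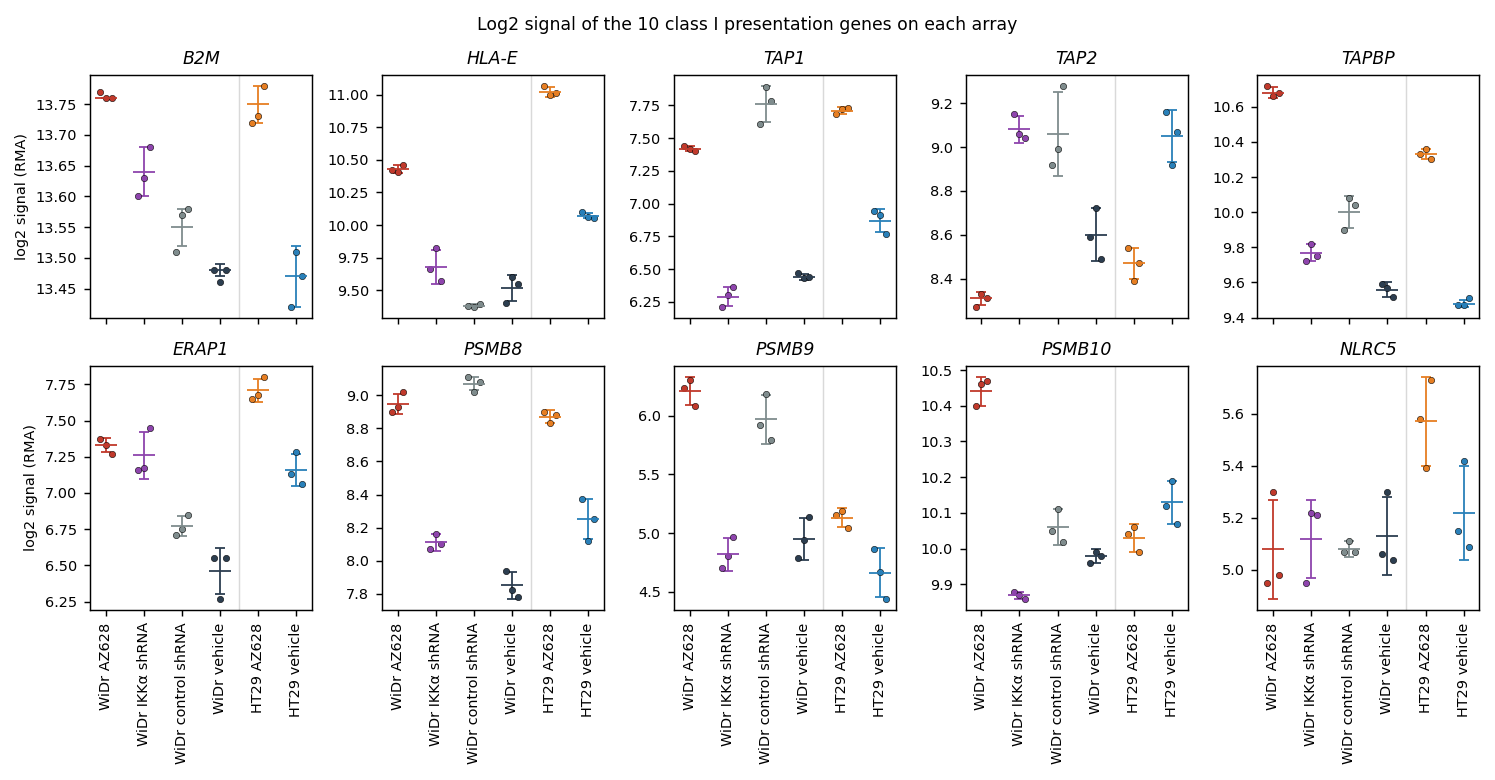
Log2 RMA signal of each of the 10 genes on each array (points), with group mean and SD (bars, n = 3), for WiDr with AZ628, IKKα shRNA, control shRNA and vehicle and for HT29 with AZ628 and vehicle, each panel with its own axis. PSMB9 with AZ628 lies between 6.08 and 6.31 in WiDr but between 5.04 and 5.19 in HT29, and TAP1 with control shRNA lies at 7.61 to 7.89, above WiDr with IKKα shRNA at 6.21 to 6.36 and with vehicle at 6.43 to 6.47.

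Of the inducible proteasome subunits, PSMB9, the counterpart of PSMB6, changed most in WiDr. Its log2 signals were 6.24, 6.31 and 6.08 on the WiDr arrays with AZ628, against 4.79, 4.94 and 5.14 with vehicle. Every AZ628 array was above every vehicle array, and the difference was 1.26 (SE 0.12, 2.39-fold, adjusted p = 7.82e-08). In HT29 the signals were 5.15, 5.19 and 5.04 with AZ628, against 4.86, 4.67 and 4.44 with vehicle. These groups did not overlap either, but the AZ628 arrays of HT29 overlapped the vehicle arrays of WiDr, and the difference was 0.47 (1.39-fold, adjusted p = 0.00336). PSMB8, the counterpart of PSMB5, had signals of 8.90, 8.93 and 9.02 with AZ628 in WiDr, against 7.94, 7.82 and 7.78 with vehicle. In HT29 it had 8.90, 8.83 and 8.88 with AZ628, against 8.37, 8.12 and 8.25 with vehicle. The AZ628 arrays were clear of the vehicle arrays in both lines, with a difference of 1.10 in WiDr (SE 0.06, 2.15-fold, adjusted p = 1.3e-10) and of 0.63 in HT29 (1.54-fold, adjusted p = 2.65e-07).

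PSMB10, the counterpart of PSMB7, rose with AZ628 in WiDr and did not pass in HT29. Its signals were 10.40, 10.46 and 10.47 with AZ628 in WiDr, against 9.96, 9.99 and 9.98 with vehicle. The groups were well apart, and the difference was 0.46 (SE 0.05, 1.38-fold, adjusted p = 3.18e-07). In HT29 they were 10.04, 10.06 and 9.99 with AZ628, against 10.12, 10.19 and 10.07 with vehicle. There the AZ628 arrays lay just below the vehicle arrays, and the difference of -0.09 did not pass (95% interval -0.20 to 0.01, adjusted p = 0.149). It passed as lower when each array was centred on its median (-0.16, adjusted p = 0.0146), without probe sets ending in _s_at or _x_at (-0.16, 0.0197) or when the gene's probe sets were averaged (-0.12, adjusted p = 0.0425).

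The chains of the peptide transporter went in opposite directions with AZ628. TAP1 had signals of 7.44, 7.42 and 7.40 with AZ628 in WiDr, against 6.47, 6.43 and 6.44 with vehicle. In HT29 the signals of TAP1 were 7.68, 7.72 and 7.73 with AZ628, against 6.94, 6.91 and 6.77 with vehicle. Replicates of TAP1 lay close together and the AZ628 arrays were higher throughout, by 0.98 in WiDr (SE 0.07, 1.97-fold, adjusted p = 1.18e-09) and by 0.84 in HT29 (1.79-fold, adjusted p = 1.08e-08). TAP2 had signals of 8.27, 8.33 and 8.31 with AZ628 in WiDr, against 8.59, 8.72 and 8.49 with vehicle. In HT29 the signals of TAP2 were 8.54, 8.39 and 8.47 with AZ628, against 9.16, 8.92 and 9.07 with vehicle. All AZ628 arrays were lower for TAP2, which fell by 0.29 in WiDr on the log2 scale (SE 0.09, adjusted p = 0.0109) and by 0.58 in HT29 (adjusted p = 2.81e-05). Without WiDr vehicle replicate 2 the WiDr difference of TAP2 was -0.23 and did not pass (adjusted p = 0.0629). In a limma fit over all probe sets, the dimmer of 2 TAP1 probe sets rose less, by 0.33 in WiDr (adjusted p = 0.0333) and 0.36 in HT29 (adjusted p = 0.0248). Of 4 TAP2 probe sets, 2 fell and 2 did not pass in WiDr (-0.29 to -0.17), and 4 fell in HT29 (-0.59 to -0.48).

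TAPBP had signals of 10.72, 10.66 and 10.68 with AZ628 in WiDr, against 9.59, 9.57 and 9.52 with vehicle. In HT29 tapasin had 10.33, 10.36 and 10.30 with AZ628, against 9.47, 9.47 and 9.51 with vehicle. The groups were far apart in both lines, by 1.13 in WiDr (SE 0.05, 2.18-fold, adjusted p = 8.2e-12) and by 0.85 in HT29 (1.8-fold, adjusted p = 4.27e-10). This rests on the brightest of 5 probe sets, and 2 of the 5 rose in each line, with differences over all 5 from 0.09 to 1.13 in WiDr and from -0.06 to 0.85 in HT29. Averaged over its probe sets, TAPBP rose by 0.42 in WiDr and 0.29 in HT29. ERAP1, the trimming aminopeptidase, had signals of 7.37, 7.33 and 7.27 with AZ628 in WiDr, against 6.55, 6.27 and 6.55 with vehicle. In HT29 its signals were 7.65, 7.68 and 7.80 with AZ628, against 7.13, 7.28 and 7.06 with vehicle. ERAP1 was higher on every AZ628 array, by 0.87 in WiDr (SE 0.09, 1.83-fold, adjusted p = 2.42e-07) and by 0.55 in HT29 (1.46-fold, adjusted p = 5.99e-05).

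At the class I molecule itself, HLA-E had signals of 10.42, 10.41 and 10.46 with AZ628 in WiDr, against 9.40, 9.60 and 9.55 with vehicle. In HT29 the HLA-E signals were 11.07, 11.00 and 11.01 with AZ628, against 10.10, 10.06 and 10.05 with vehicle. The groups did not overlap, and the difference was 0.92 in WiDr (SE 0.06, 1.89-fold, adjusted p = 1.41e-09) and 0.95 in HT29 (1.94-fold, adjusted p = 1.03e-09). The light chain B2M had signals of 13.77, 13.76 and 13.76 with AZ628 in WiDr, against 13.48, 13.46 and 13.48 with vehicle. HT29 gave B2M signals of 13.72, 13.73 and 13.78 with AZ628, against 13.42, 13.51 and 13.47 with vehicle. The rise of B2M was small and larger than the spread of replicates, at 0.29 in WiDr (1.22-fold, adjusted p = 5.25e-05) and 0.28 in HT29 (1.21-fold, adjusted p = 8.33e-05).

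The transactivator NLRC5 gave no call in WiDr and a call in HT29 that depended on single arrays. Its signals were 4.95, 5.30 and 4.98 with AZ628 in WiDr, against 5.06, 5.30 and 5.04 with vehicle. The groups overlapped, and the difference of -0.06 did not pass (95% interval -0.30 to 0.18, adjusted p = 0.751). In HT29 they were 5.58, 5.39 and 5.73 with AZ628, against 5.15, 5.42 and 5.09 with vehicle. HT29 vehicle replicate 2 lay above an AZ628 array, and the difference was 0.34 (1.27-fold, adjusted p = 0.0205). Its adjusted p was above the threshold when AZ628 replicate 1 (0.0516) or 3 (0.105) or vehicle replicate 1 (0.0722) or 3 (0.0927) was left out, with each array centred on its median (0.28, adjusted p = 0.0671), and without probe sets ending in _s_at or _x_at (0.13, adjusted p = 0.34).

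Markers of other cell types also changed with AZ628, some by as much as the members. Their counts are read against all genes, of which 23.4% were higher and 21.1% lower in WiDr, and 22.5% and 21.0% in HT29. Of 9 leukocyte markers, 1 rose and 2 fell in each line. CD68, also a lysosomal protein, rose by 0.72 in WiDr and 0.50 in HT29, CD14 differed by -0.96 and -0.46 and CORO1A by -0.81 and -0.36, all passing, while PTPRC, carried by all leukocytes, differed by 0.10 and 0.06 without passing. List means of leukocyte markers ranged from 4.69 to 4.76 with AZ628, against 4.77 to 4.87 with vehicle in WiDr, and from 4.75 to 4.80 with AZ628, against 4.75 to 4.82 with vehicle in HT29. Of 5 dendritic cell markers, 1 rose (LAMP3, 0.42) and 2 fell (CD83, -0.54, and FLT3, -0.23) in WiDr, and 1 rose (CLEC9A, 0.21) and 1 fell (CD83, -1.13) in HT29. Their list means ranged from 4.06 to 4.24 with AZ628, against 4.14 to 4.22 with vehicle in WiDr, and from 4.22 to 4.48 with AZ628, against 4.42 to 4.50 with vehicle in HT29. Of 7 fibroblast markers, LUM rose by 1.25 in WiDr and 1.77 in HT29 and COL1A2 fell by 0.23 in WiDr. Of 5 endothelial markers, TEK rose by 0.35 in WiDr. Of the 10 epithelial markers 4 rose and 4 fell in each line, with VIL1 at 0.98 and 0.85 and KRT20 at -1.22 and -1.10. Any part of such cells in the members' changes was not tested.

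**Figure D3:**
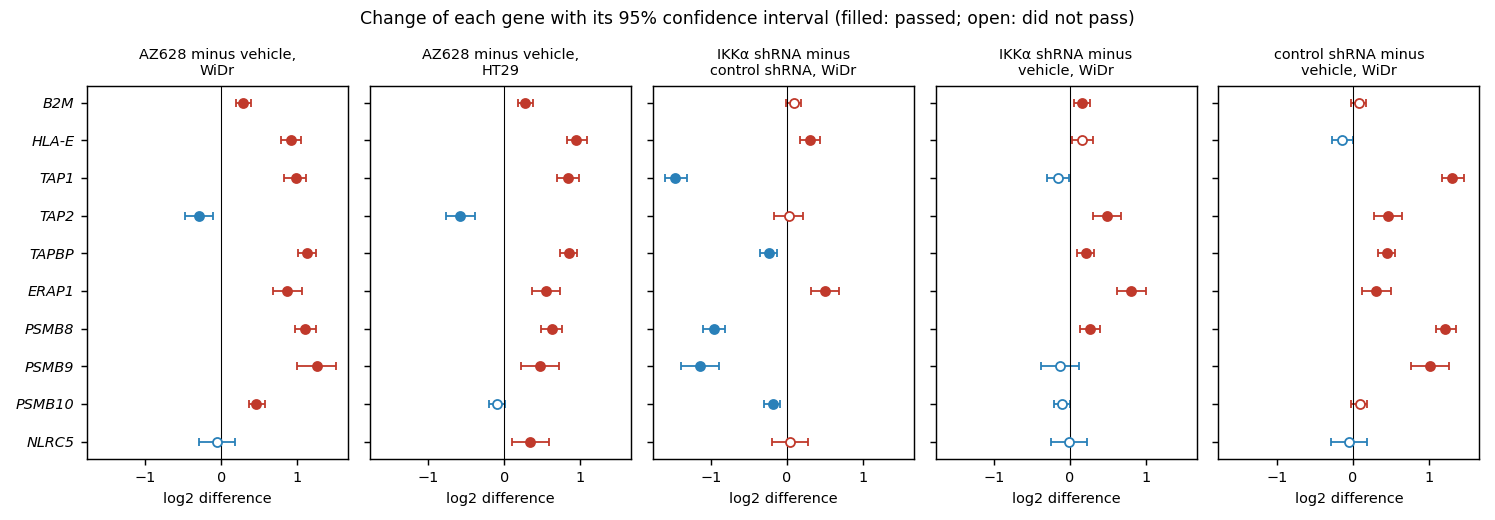
Log2 difference of each gene with its 95% confidence interval in 5 comparisons (filled: passed; open: did not pass; red above 0, blue below 0). With AZ628 the 10 genes lie mostly right of 0 in both lines, TAP2 lies left of it, and TAP1, PSMB8 and PSMB9 lie far left of 0 for IKKα shRNA against control shRNA and far right of 0 for control shRNA against vehicle.

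The AZ628 response differed between the lines for 4 of the 10 members, all with a smaller value in HT29, where 9.19% of all genes passed, 4.06% higher and 5.13% lower. These were the inducible proteasome subunits PSMB9 (-0.79, SE 0.17, adjusted p = 0.00554), PSMB10 (-0.56, SE 0.07, adjusted p = 4.44e-05) and PSMB8 (-0.48, SE 0.09, adjusted p = 0.00223), and TAPBP (-0.28, SE 0.08, adjusted p = 0.0276), each as the HT29 effect minus the WiDr effect on the log2 scale. The proteasome calls of all 3 subunits held without any of the 12 arrays in turn, while PSMB8 was lost with the mean of its probe sets (-0.26, adjusted p = 0.0582). The TAPBP call was lost without WiDr AZ628 replicate 1 (-0.26, adjusted p = 0.0676), WiDr vehicle replicate 3 (0.075), HT29 AZ628 replicate 1 (0.0565) or 3 (0.0617) or HT29 vehicle replicate 3 (0.0637), with renewed quantile normalization (-0.24, 0.0874) and in the fit over all probe sets (0.0595), and its difference was -0.13 with the mean of its probe sets (adjusted p = 0.492).

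The other 6 members gave no call of a difference between the lines. For HLA-E the difference was 0.04 (95% interval -0.15 to 0.23), for B2M -0.01 (-0.15 to 0.13) and for TAP1 -0.14 (-0.34 to 0.06). TAP2 (-0.28, adjusted p = 0.202), ERAP1 (-0.32, adjusted p = 0.152) and NLRC5 (0.40, adjusted p = 0.157) had intervals that left out 0 before adjustment over all genes. These intervals bound the differences and do not show that the lines respond alike.

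In cells with IKKα shRNA, TAP1, PSMB8 and PSMB9 were far below the control shRNA cells and close to the vehicle cells. Against control shRNA, 5 of the 10 members fell (TAP1, PSMB9, PSMB8, TAPBP and PSMB10), 2 rose (ERAP1 and HLA-E) and 3 did not pass, where 34.9% of all genes passed, 15.9% higher and 19.0% lower. Against WiDr vehicle, 5 rose (ERAP1, TAP2, PSMB8, TAPBP and B2M), 0 fell and 5 did not pass, where 36.3% of all genes passed, 16.4% higher and 19.8% lower. Control shRNA itself was above vehicle for 6 members, with 0 lower and 4 not passing, where 22.2% of all genes passed, 11.6% higher and 10.6% lower. The median difference of the members was -0.09 against control shRNA, 0.16 against vehicle and 0.38 for control shRNA against vehicle, with medians over all genes of 0.02, -0.06 and -0.04. These comparisons share arrays in pairs and are given side by side. Markers of other cell types moved here too, and their counts are read against the same shares of all genes. For IKKα shRNA against control shRNA, 0 of 9 leukocyte markers rose and 1 fell (CD14, -1.25), with list means of 4.57 to 4.67 with IKKα shRNA, against 4.74 to 4.85 with control shRNA. Of 7 fibroblast markers 2 rose (LUM, 2.84, and COL3A1, 0.50) and 0 fell, with list means of 4.70 to 4.80 with IKKα shRNA, against 4.21 to 4.25 with control shRNA. Of 5 endothelial markers 1 rose (TEK, 1.20), of 5 dendritic cell markers 1 rose (LAMP3, 0.75), and 0 of either list fell. Of 10 epithelial markers 1 rose (CEACAM5, 3.28) and 2 fell (VIL1, -1.16, and KRT20, -0.34). For control shRNA against vehicle, 2 of 9 leukocyte markers rose (CD14, 0.71, and CD68, 0.30) and 1 fell (CORO1A, -0.41). Of 7 fibroblast markers 1 rose (LUM, 0.36) and 2 fell (PDGFRB, -0.37, and THY1, -0.26). Of 5 endothelial markers 1 rose (TEK, 0.75), and of 5 dendritic cell markers 0 passed. Of 10 epithelial markers 5 rose, VIL1 by 0.75, and 0 fell. For IKKα shRNA against vehicle, 0 of 9 leukocyte markers rose and 3 fell, and 2 of 7 fibroblast markers rose and 1 fell. There 1 of 5 endothelial markers rose (TEK, 1.95) and 0 fell, and 1 of 5 dendritic cell markers rose and 1 fell. Of 10 epithelial markers 3 rose and 1 fell. The part of these markers in the members' changes was not tested. No batch is labelled, so transduction and any batch of the transduced arrays cannot be told apart.

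TAP1 had signals of 6.21, 6.30 and 6.36 with IKKα shRNA, 7.61, 7.89 and 7.78 with control shRNA and 6.47, 6.43 and 6.44 with vehicle. The control shRNA arrays stood alone at the top, and the IKKα shRNA arrays lay slightly below vehicle. TAP1 fell by 1.47 on the log2 scale against control shRNA (SE 0.07, 2.76-fold, adjusted p = 1.68e-11), and its difference from vehicle of -0.15 did not pass (95% interval -0.30 to -0.01, adjusted p = 0.0882). Control shRNA was 1.31 above vehicle for TAP1 (2.48-fold, adjusted p = 1.78e-09).

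PSMB9 had signals of 4.70, 4.80 and 4.97 with IKKα shRNA, 5.92, 6.19 and 5.79 with control shRNA and 4.79, 4.94 and 5.14 with vehicle. Its IKKα shRNA and vehicle arrays overlapped, well below control shRNA. The difference of PSMB9 was -1.14 against control shRNA (SE 0.12, 2.21-fold lower, adjusted p = 5.83e-07) and -0.13 against vehicle (95% interval -0.38 to 0.12, adjusted p = 0.429), while control shRNA was 1.01 above vehicle (adjusted p = 1.87e-05). PSMB8 had signals of 8.07, 8.16 and 8.10 with IKKα shRNA, 9.11, 9.02 and 9.08 with control shRNA and 7.94, 7.82 and 7.78 with vehicle. For PSMB8 the IKKα shRNA arrays lay between the controls, nearer to vehicle. The difference of PSMB8 was -0.96 against control shRNA (1.94-fold lower, adjusted p = 2.43e-09) and turned to 0.26 against vehicle (1.2-fold higher, adjusted p = 0.0035), with control shRNA 1.22 above vehicle (adjusted p = 2.48e-09).

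PSMB10 had signals of 9.88, 9.87 and 9.86 with IKKα shRNA, 10.05, 10.11 and 10.02 with control shRNA and 9.96, 9.99 and 9.98 with vehicle. Its IKKα shRNA arrays were the lowest in the study, with a difference of -0.19 against control shRNA (adjusted p = 0.00504), and the difference from vehicle of -0.11 did not pass (adjusted p = 0.103). Without probe sets ending in _s_at or _x_at the difference of PSMB10 from control shRNA was -0.09 and did not pass (adjusted p = 0.252). TAPBP had 9.72, 9.82 and 9.75 with IKKα shRNA, 9.90, 10.08 and 10.04 with control shRNA and 9.59, 9.57 and 9.52 with vehicle. Tapasin with IKKα shRNA thus lay between the controls, at -0.24 against control shRNA (adjusted p = 0.00174) and 0.21 against vehicle (adjusted p = 0.00516), so its direction turned with the control. This rests on the brightest probe set: with all 5 averaged, TAPBP differed by 0.09 from control shRNA (adjusted p = 0.291) and by 0.08 from vehicle (adjusted p = 0.341), neither passing, and control shRNA differed by -0.01 from vehicle.

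ERAP1 behaved otherwise, with 7.16, 7.17 and 7.45 with IKKα shRNA, 6.71, 6.75 and 6.85 with control shRNA and 6.55, 6.27 and 6.55 with vehicle. It was higher with IKKα shRNA than with either control, by 0.50 against control shRNA (SE 0.09, 1.41-fold, adjusted p = 0.000263) and by 0.81 against vehicle (1.75-fold, adjusted p = 1.54e-06). Control shRNA was 0.31 above vehicle for ERAP1 (adjusted p = 0.0221), and no longer passed when control shRNA replicate 3 (0.27, adjusted p = 0.0829) or vehicle replicate 2 (0.22, 0.125) was left out, with the mean of its probe sets (0.08, 0.282) and without those ending in _s_at or _x_at (-0.01, 0.954). Averaged over its probe sets, ERAP1 rose by 0.18 against control shRNA (adjusted p = 0.0137) and by 0.25 against vehicle (adjusted p = 0.000865) with IKKα shRNA. TAP2 had 9.15, 9.06 and 9.04 with IKKα shRNA, 8.92, 8.99 and 9.28 with control shRNA and 8.59, 8.72 and 8.49 with vehicle. Both transduced groups of TAP2 overlapped each other (difference 0.02, 95% interval -0.17 to 0.21) and lay above vehicle, by 0.49 with IKKα shRNA (adjusted p = 0.000282) and by 0.46 with control shRNA (adjusted p = 0.00156). Averaged over its probe sets, TAP2 fell by 0.22 on the log2 scale with IKKα shRNA against control shRNA (adjusted p = 0.026).

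HLA-E had 9.66, 9.82 and 9.57 with IKKα shRNA, 9.38, 9.37 and 9.39 with control shRNA and 9.40, 9.60 and 9.55 with vehicle. It rose by 0.30 against control shRNA (1.23-fold, adjusted p = 0.00109), whereas the IKKα shRNA and vehicle arrays overlapped, with a difference of 0.16 that did not pass (adjusted p = 0.0561). The vehicle comparison passed when IKKα shRNA replicate 3 (0.22, adjusted p = 0.018) or vehicle replicate 2 (0.20, 0.0369) was left out and under 4 other settings (0.16 to 0.19, adjusted p 0.0127 to 0.0376), and control shRNA was lower than vehicle without vehicle replicate 1 (-0.20, adjusted p = 0.0413). B2M had 13.60, 13.63 and 13.68 with IKKα shRNA, 13.51, 13.57 and 13.58 with control shRNA and 13.48, 13.46 and 13.48 with vehicle. The steps of B2M were small, 0.09 against control shRNA (adjusted p = 0.182) and 0.16 against vehicle (adjusted p = 0.0119), and neither kept its side of the threshold under every setting. The first passed with renewed quantile normalization (0.14, adjusted p = 0.0191) and with a robust eBayes trend (0.0390), and the second was lost without IKKα shRNA replicate 3 (0.14, adjusted p = 0.0556), with averaged probe sets (0.12, 0.127), without those ending in _s_at or _x_at (0.13, 0.134) and with only the arrays compared (0.0603). NLRC5 had 4.95, 5.22 and 5.21 with IKKα shRNA, 5.07, 5.11 and 5.07 with control shRNA and 5.06, 5.30 and 5.04 with vehicle. All of these NLRC5 groups overlapped, with differences of 0.04 against control shRNA (95% interval -0.20 to 0.28) and -0.01 against vehicle (-0.25 to 0.23).

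Between the lines with vehicle, HT29 was above WiDr for 6 of the 10 members, with 0 lower and 4 not passing, where 32.2% of all genes passed, 16.9% higher and 15.3% lower. The differences were 0.70 for ERAP1 (adjusted p = 7.55e-06), 0.55 for HLA-E (2.33e-06), 0.45 for TAP2 (0.000578), 0.43 for TAP1 (6.98e-05), 0.40 for PSMB8 (9.25e-05) and 0.15 for PSMB10 (0.0269). In the fit over all probe sets, HT29 was higher on 6 of 6 for HLA-E, 4 of 4 for TAP2 and 2 of 3 for PSMB8. It was higher on 2 of 5 for ERAP1, 1 of 2 for TAP1 (0.19 on the other, adjusted p = 0.308) and 0 of 3 for PSMB10. The PSMB10 call was lost without any of 5 single arrays, namely WiDr vehicle replicate 1, 2 or 3 and HT29 vehicle replicate 1 or 2 (0.12 to 0.15, adjusted p 0.053 to 0.117), and under 5 other settings (0.12 to 0.15, adjusted p 0.0526 to 0.13). PSMB9 differed by -0.30 (adjusted p = 0.0668), and passed as lower when replicate 1 of WiDr vehicle (-0.38, adjusted p = 0.0332) or of HT29 vehicle (-0.40, 0.0228) was left out, or with each array centred on its median (-0.32, 0.0472).

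With AZ628, HT29 was above WiDr for 4 members and below it for 3, where 34.4% of all genes passed, 17.2% in each direction. HLA-E (0.59), NLRC5 (0.49), ERAP1 (0.38) and TAP1 (0.29) were higher in HT29, and PSMB9 (-1.09, 2.12-fold lower, adjusted p = 1.14e-06), PSMB10 (-0.41) and TAPBP (-0.35) were lower. The NLRC5 call was lost without probe sets ending in _s_at or _x_at (0.18, adjusted p = 0.196), and that of TAPBP with the mean of its probe sets (-0.07, adjusted p = 0.451). TAP1 passed on 1 of 2 probe sets (0.21 on the other, adjusted p = 0.236) and ERAP1 on 3 of 5. PSMB8 was higher in HT29 with vehicle and differed by -0.08 with AZ628, which did not pass (95% interval -0.22 to 0.06).

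Over the 6 groups the order of levels was not shared by the members. PSMB8 and TAP1 were highest with control shRNA in WiDr, at 9.07 ± 0.04 and 7.76 ± 0.14 (SD, n = 3), and TAP1 there overlapped HT29 with AZ628 at 7.71 ± 0.03. PSMB9 was highest in WiDr with AZ628 at 6.21 ± 0.12, which overlapped control shRNA at 5.97 ± 0.21. Its other groups formed a chain of overlapping neighbours below, through HT29 with AZ628, WiDr with vehicle and WiDr with IKKα shRNA down to HT29 with vehicle at 4.66 ± 0.21. HLA-E and ERAP1 were highest in HT29 with AZ628, at 11.02 ± 0.04 and 7.71 ± 0.08. TAPBP, PSMB10 and B2M were highest in WiDr with AZ628, at 10.68 ± 0.03, 10.44 ± 0.04 and 13.76 ± 0.00, and B2M there overlapped HT29 with AZ628 at 13.75 ± 0.03. TAP2 ran the other way, with its lowest level of 8.31 ± 0.03 in WiDr with AZ628 and overlapping highest levels in IKKα shRNA, control shRNA and HT29 vehicle arrays (9.08, 9.06 and 9.05). Every pair of neighbours overlapped for NLRC5.

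The other probe sets of a member were compared in a fit over all probe sets. With AZ628, 28 of the 41 probe sets rose and 2 fell in WiDr, where 39.9% of all single-symbol probe sets passed, 20.6% higher and 19.3% lower. In HT29 26 rose and 5 fell, where 38.9% of all passed, 19.8% higher and 19.0% lower. The AZ628 effects differed between the lines for 7, all lower in HT29, where 5.74% of all passed, 2.50% higher and 3.24% lower. All 6 probe sets of HLA-E rose in both lines, by 0.92 to 1.29 in WiDr and by 0.78 to 1.17 in HT29. The names of all 6 end in _s_at or _x_at, and signal taken from other HLA genes was not tested. All 8 of B2M rose in WiDr, by 0.29 to 0.40, of which a pair held identical values on all arrays. PSMB10 rose on 3 of 3 in WiDr (0.33 to 0.46) and on 0 of 3 in HT29 (-0.16 to -0.09, with 1 lower). With IKKα shRNA, 10 probe sets fell and 5 rose against control shRNA, where 30.3% of all passed, 14.5% higher and 15.8% lower. Against vehicle 12 rose and 1 fell, where 31.7% of all passed, 16.5% higher and 15.2% lower. With control shRNA against vehicle 12 rose and 0 fell, where 17.0% passed, 10.1% higher and 6.86% lower. Both TAP1 probe sets fell against control shRNA, with differences of -1.47 and -0.80, as did 2 of 3 each for PSMB8 and PSMB9. TAP2 split, as a probe set of it with a mean signal of 6.74 fell against control shRNA (-0.95) and against vehicle (-0.27), while the other 3 differed by 0.01 to 0.05 and by 0.47 to 0.55. With AZ628 the probe sets of TAP1 spread from 0.33 to 0.98 in WiDr and from 0.36 to 0.84 in HT29. Those of PSMB8 spread from -0.01 to 1.21 in WiDr and from 0.24 to 0.67 in HT29. Averages over a gene's probe sets were smaller than its brightest probe set for PSMB9 and ERAP1, among others, with the same calls for AZ628. They gave 0.69 in WiDr and 0.21 in HT29 for PSMB9 (adjusted p = 1.4e-06 and 0.049) and 0.34 and 0.32 for ERAP1 (adjusted p = 2.16e-05 and 5.94e-05), and for IKKα shRNA against control shRNA they gave -0.61 for PSMB9 and -0.62 for PSMB8.

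**Figure D4:**
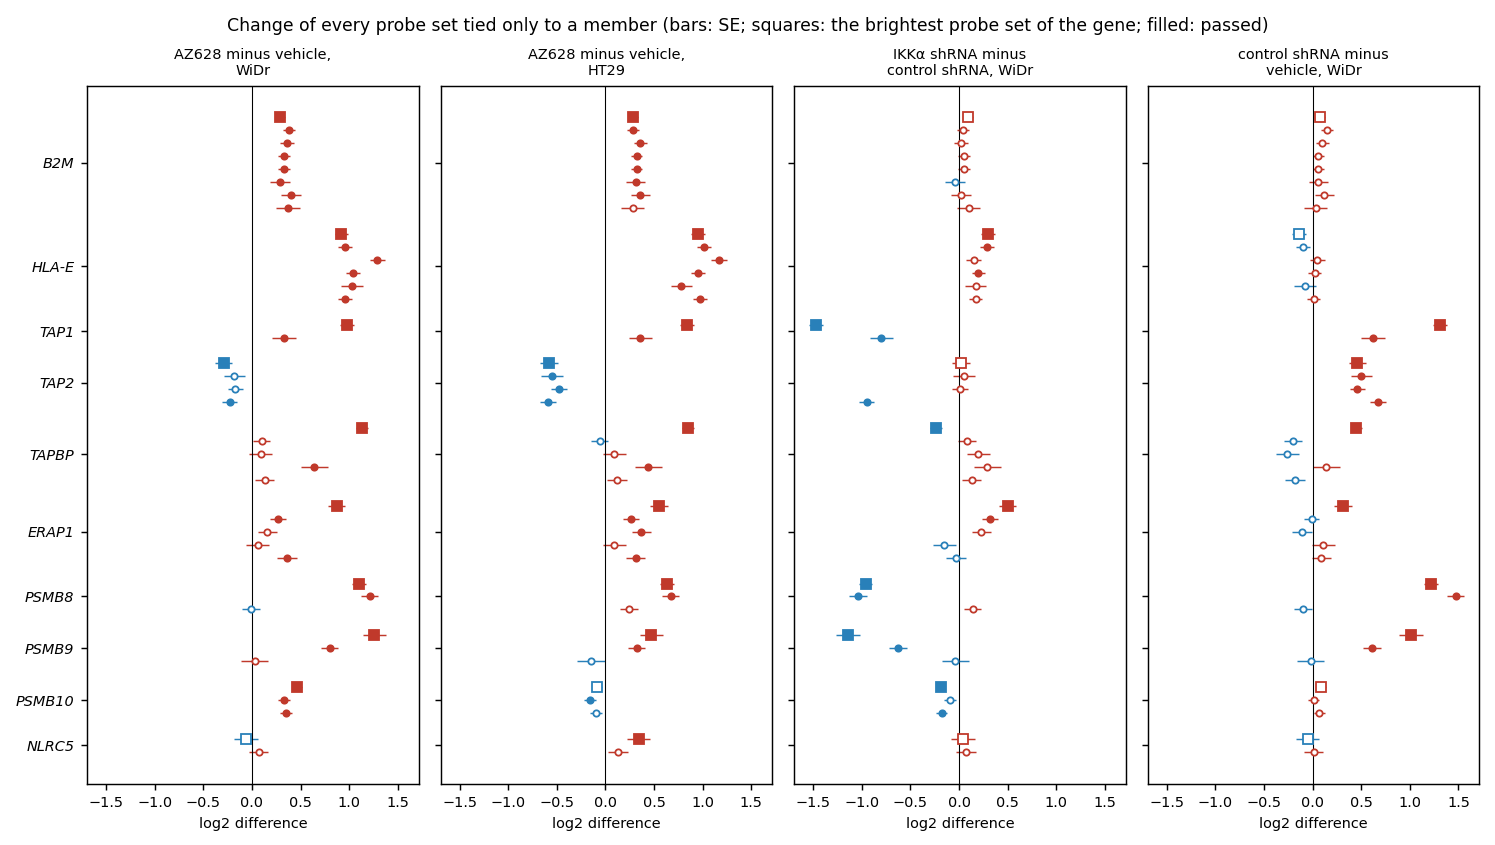
Log2 difference with SE of all 41 probe sets tied only to a member in 4 comparisons (square: the gene's brightest probe set, which stands for the gene; filled: passed; red above 0, blue below 0). The 6 HLA-E probe sets all lie between 0.78 and 1.29 with AZ628, while those of TAPBP spread from 0.09 to 1.13 in WiDr, and a TAP2 probe set at -0.95 stands apart from the other 3 for IKKα shRNA against control shRNA.

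Neighbouring genes of the pathway are described by list, and their counts are read against all genes, of which 23.4% were higher and 21.1% lower with AZ628 in WiDr, 22.5% and 21.0% in HT29, 15.9% and 19.0% with IKKα shRNA against control shRNA, and 16.4% and 19.8% with IKKα shRNA against vehicle. Of the other class I and class I-like chains, 8 of 9 were measured, and 5 rose with AZ628 in WiDr and 6 in HT29, with 0 lower (list medians 0.51 and 0.43). FCGRT, the class I-like receptor that carries IgG and albumin, rose most, by 1.16 in WiDr and 1.07 in HT29. HLA-C rose by 0.61 and 0.68 and HLA-F by 0.40 and 0.36, while HLA-B differed by -0.03 in WiDr, which did not pass, and rose by 0.22 in HT29. Sequences of HLA genes are close, so their probe sets, those of HLA-E included, can take signal from each other, which was not tested. With IKKα shRNA 3 rose and 3 fell against control shRNA. MR1, which shows vitamin B metabolites to T cells, rose by 0.97, and FCGRT fell by 1.02 on the log2 scale. HLA-C fell by 0.21 against control shRNA and rose by 0.24 against vehicle, and HLA-F rose by 0.84 and 1.16.

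The standard proteasome subunits did not rise with their inducible counterparts. PSMB5 (-0.29 in WiDr, -0.16 in HT29) and PSMB6 (-0.17 and -0.21) fell with AZ628, and PSMB7 differed by -0.09 and -0.08 without passing. Of the 7 genes of this list, 1 rose and 4 fell in each line. PSME1, a subunit of the interferon-inducible activator of the proteasome, rose by 0.44 in WiDr and 0.29 in HT29, and PSME3, of the nuclear activator, fell by 1.37 and 1.20 on the log2 scale. With IKKα shRNA 0 rose and 3 fell against control shRNA, led by PSME1 (-0.39, adjusted p = 1.31e-05), which differed by -0.09 from vehicle without passing. Chaperones and loading factors rose for 5 of 8 in WiDr, led by the trimming enzyme ERAP2 (0.57), and for 3 of 8 in HT29, led by the translocon subunit SEC61A1 (0.23), with 0 lower. SEC61A1 also led the 2 of 8 that rose with IKKα shRNA against control shRNA (0.46), and 5 of 8 rose against vehicle, led by CALR (0.76).

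Among 23 measured genes of transcriptional control and interferon signalling, 11 rose and 4 fell with AZ628 in WiDr, and 9 rose and 4 fell in HT29 (list median 0.15 in each). The falls were near the share of all genes that fell. JAK1, a kinase of interferon receptors, rose most in WiDr (1.16), and RFX5, which binds class I and class II promoters, rose most in HT29 (0.85, with 0.67 in WiDr). IRF1 rose by 0.50 in WiDr and 0.44 in HT29, EZH2, a histone methyltransferase, fell by 0.76 and 0.49 on the log2 scale, and the class II transactivator CIITA differed by 0.05 in each line without passing. With IKKα shRNA 6 rose and 5 fell against control shRNA, not far from the shares of all genes. IRF2 fell most, by 0.63, and RFX5 fell by 0.53, while IRF1 rose by 0.31 and NFYA, a subunit of the promoter factor NF-Y, by 0.37. Against vehicle 7 rose and 5 fell, with IRF9 highest (0.57), although IRF9 fell by 0.38 against control shRNA, which was itself 0.95 above vehicle.

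In the class II list 3 of 8 rose with AZ628 in each line, not far from the share of all genes, 0 fell, and the list median was 0.14 in WiDr and 0.17 in HT29. HLA-DMA, a chain of the class II peptide exchanger, rose by 2.16 in WiDr and 1.58 in HT29, while HLA-DMB, its partner, differed by -0.14 and -0.13 without passing. With IKKα shRNA HLA-DMA rose by 0.62 and HLA-DMB fell by 0.62 against control shRNA. Ligands of lymphocyte receptors that passed were lower with AZ628 in WiDr and mostly higher with IKKα shRNA. With AZ628, 0 of 10 rose and 5 fell in WiDr, led by the poliovirus receptor PVR (-0.79). In HT29 1 rose and 3 fell, where MICA rose (0.22) and ULBP3 fell (-0.54). The falls in HT29 were not far from the share of all genes that fell (21.0%), and the list median there was -0.09. With IKKα shRNA 7 of 10 rose and 1 fell against control shRNA, led by ULBP1, a ligand of the NKG2D receptor (3.05, adjusted p = 3.32e-11), while ULBP2 fell (-0.95). CD274, which encodes an inhibitory ligand of T cells, rose by 0.99 against control shRNA and by 0.69 against vehicle with IKKα shRNA, and differed by 0.01 and 0.08 with AZ628 in WiDr and HT29 without passing.

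**Figure D5:**
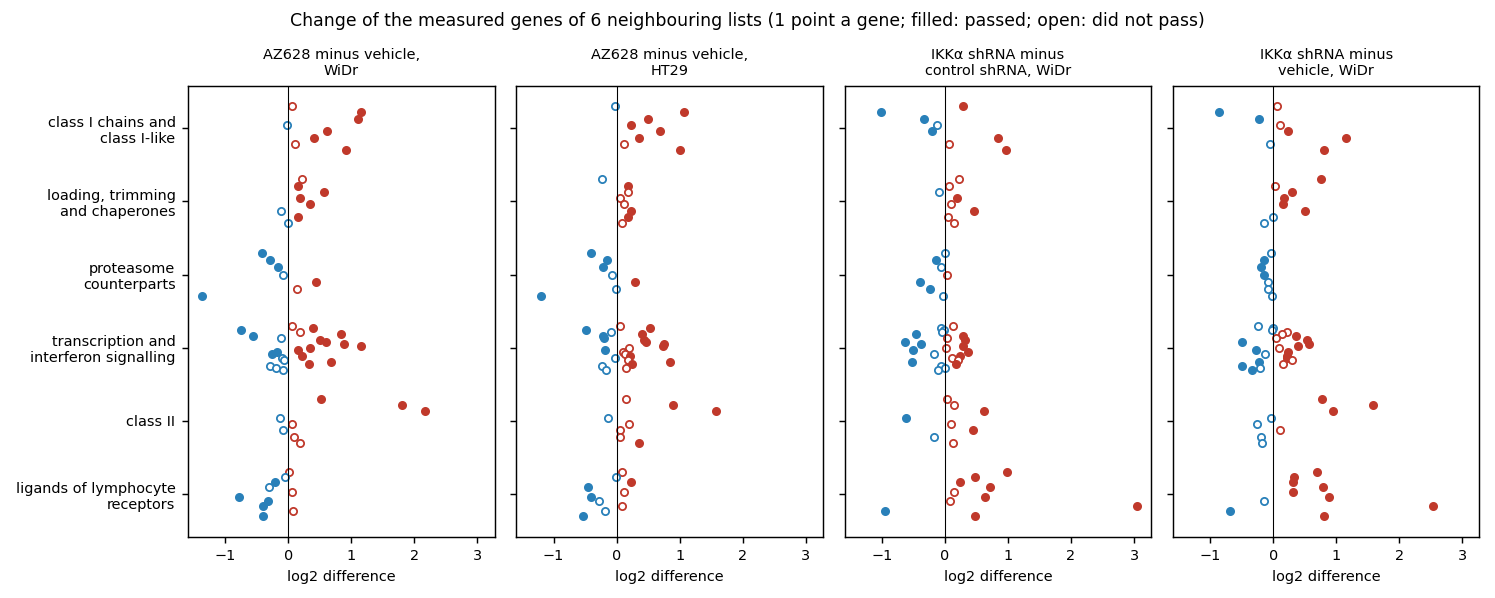
Log2 difference of each measured gene of 6 neighbouring lists (1 point a gene; filled: passed; open: did not pass) in 4 comparisons. Receptor ligands have a median of -0.27 with AZ628 in WiDr and of -0.09 in HT29. They lie mostly right of 0 with IKKα shRNA, with ULBP1 at 3.05 against control shRNA. HLA-DMA stands out in the class II list at 2.16 in WiDr and 1.58 in HT29.

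The genes whose pattern over the 18 arrays was most like a member's were sought among 4165 genes whose group means span at least 1 on the log2 scale. Nearest to TAP1 were TCEA3 (Pearson r 0.954), IFIH1 (0.949) and PARP14 (0.94), and nearest to PSMB8 were PARP9 (0.96), IFIH1 (0.934) and TCEA3 (0.893). PSMB9 had MTM1 (0.935), CLMN (0.931) and PRKCD (0.924) as its nearest. HLA-E was followed most closely by GABARAP (0.993), H2BC5 (0.991) and SAT2 (0.988), TAPBP by FBXO32 (0.979), ZNF169 (0.977) and DTX4 (0.975), and B2M by CREBRF (0.971), PKIB (0.967) and SLC16A4 (0.966). For ERAP1 the nearest was RAB8B (0.958), for TAP2 CLPB (0.919), for PSMB10 ZHX1 (0.916) and for NLRC5 UNC5CL (0.797). The 18 arrays share groups and normalization, so these values describe the pattern over 6 groups more than over single arrays.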

How the data were processed

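RNA of WiDr and HT29 cells was measured on 18 arrays in 6 groups of 3, assigned from the titles and conditions in the labels. The authors deposited log2 signals per probe set. RMA, limma and R 3.0.2 are named in the submitters' processing notes. The genome build is not given in the sources used here. RMA gives all arrays a common distribution, which hides a shift of most genes together and compresses dim signals. The labels' protocols state 100 ng of total RNA and whole-transcript labelling, but the names of the probe sets follow arrays that are read near the 3′ end, which was left unsettled. The design text writes HT28 for inhibited arrays, which was read as HT29 from the labels, and the description of the IKKα shRNA arrays also holds the word control, so the title was followed.

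Of 49395 probe sets, 44994 were tied to 1 symbol by the platform annotation, 1832 to several and 2569 to none. Each of 18132 genes was its single-symbol probe set with the highest mean, with no filter on dim genes. A linear model of 6 groups was fitted in R 4.3.3 with limma 3.58.1 and data.table (version 1.17.8), 12 residual and 4.49 prior degrees of freedom, eBayes and two-sided p-values adjusted by Benjamini-Hochberg over all genes in each of 8 comparisons, and with 41 member probe sets in a second fit over the 44994. Figures used Python 3.11.15 and matplotlib 3.10.9. The fit was tested on simulated data. Members, the 6 neighbouring lists, markers and the naming rule were chosen with earlier results of these data known. The rule names all members, the largest rise and fall of each list per treatment and a fixed set of genes, and the nearest patterns of each member. HLA-DMB in the AZ628 comparisons PSME1, RFX5 and IRF9 beside their vehicle values and the single markers of other cell types were added after their values were seen. Listed genes without a single-symbol probe set were not analysed here. Same-numbered arrays did not deviate together, with correlations of deviations from -0.23 to 0.25, so numbers do not pair arrays. Alternatives were the mean of probe sets, every probe set, a dim filter, no _s_at or _x_at probe sets, renewed quantile normalization, median centring, only the arrays compared, a replicate block, eBayes with trend, vehicle as control and leaving out each array.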

Additional observations from a re-analysis of the deposited data

Results flagged for a closer look

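For 4 members the response to AZ628 differed between HT29 and WiDr by the test of the difference itself. On the log2 scale, HT29 less WiDr, it was -0.79 for PSMB9 (adjusted p = 0.00554), -0.56 for PSMB10 (adjusted p = 4.44e-05), -0.48 for PSMB8 (adjusted p = 0.00223) and -0.28 for TAPBP (adjusted p = 0.0276). The first 3 encode the inducible catalytic subunits of the proteasome, and the 3 PSMB10 probe sets, 2 of 3 PSMB9 and 2 of 3 PSMB8 probe sets passed in the same direction. Of the 5 TAPBP probe sets 0 passed in the fit over all probe sets.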

How the results depend on the processing

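For the counts of members called, 1 alternative moved a count by over 1.5 times. With probe sets averaged per gene, 2 members differed between the lines in their AZ628 effect. Averaged probe sets turned TAP2 to -0.22 and TAPBP to 0.09 for IKKα shRNA against control shRNA, and TAPBP to -0.01 for control shRNA against vehicle. Without probe sets ending in _s_at or _x_at, ERAP1 turned to -0.01 for control shRNA against vehicle, NLRC5 with AZ628 in HT29 was 0.13 (adjusted p = 0.34), and HLA-E had no value. With vehicle arrays as the control of IKKα shRNA, PSMB8 turned to 0.26 and TAPBP to 0.21. The calls of TAP1, PSMB9, PSMB10 and HLA-E were lost there, and TAP2 and B2M gained calls. The members called thus went from 2 higher and 5 lower to 5 higher and 0 lower. The cause was not tested, beyond the other arrays or probe sets that each alternative uses. Leaving out single arrays kept 517 of 540 member values on their side of the threshold, with 18 lost calls, 5 gained and 0 reversed, and counts between 8 and 9 for AZ628 in each line, 3 and 4 for the difference, and 7 for IKKα shRNA against control shRNA. The replicate block gave 9 calls for AZ628 in each line and 7 for IKKα shRNA, and kept all 80 member values on their side. Median centring shifted the median of all genes by -0.07 for AZ628 in WiDr and by less in the other comparisons. Dim members (NLRC5, PSMB9) carry the least signal over background.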
